A study of Mus musculus with 4 samples.

Results

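The AP-1 and Batf transcription factors were followed in mouse regulatory T cells. They comprise 10 genes: the Jun family members Jun, Junb and Jund, the Fos family members Fos, Fosb, Fosl1 and Fosl2, and the Batf family members Batf, Batf2 and Batf3. They were taken by symbol from the 50600 genes listed, and all 10 were found. Regulatory T cells are T lymphocytes, mostly CD4+, that hold other immune cells in check under the control of Foxp3. Their RNA was profiled as 4 replicate libraries of primary cells of the C57BL/6NJ strain. All libraries form 1 group, so no genotype, treatment or other cell type is set against them. The labels link a protocol for differentiating CD4+ T cells, and the headers' names for the alignments include the words activated and 48h. The sex is not collected, the age is unknown, and each library has its own biosample under 1 shared donor record. How the biosamples were obtained is not stated, so the spread between libraries may be partly technical.

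AP-1 is a dimer of leucine zipper proteins. A Jun protein can pair with itself, with another Jun protein or with a Fos protein, whereas Fos proteins do not pair with each other and need a Jun partner to bind DNA. Batf proteins lack a transactivation domain, pair with Jun proteins and bind composite sites together with the interferon regulatory factors Irf4 and Irf8. In T cells AP-1 is induced by antigen receptor signals and cooperates with NFAT, Junb has been linked to effector regulatory T cells, and Batf is required for regulatory T cells of non-lymphoid tissues.

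The feature that the 10 genes share is the basic region next to the zipper, which touches the DNA. The coding sequence of its 9-codon core is shown for each gene from the GENCODE M21 transcripts on mm10. Capitals mark the codons of an asparagine, an adjoining pair of alanines, a cysteine or serine, and an arginine.

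Junb (chr8:84977581-84977607, minus strand): AACaggctgGCGGCCaccaagTGCCGG
Jund (chr8:70699871-70699897, plus strand): AACcgcatcGCCGCCtccaaaTGCCGC
Jun (chr4:95050453-95050479, minus strand): AACcgcattGCCGCCtccaagTGCCGG
Batf (chr12:85689310-85689336, plus strand): AATcgcatcGCTGCCcagaagAGCCGA
Batf3 (chr1:191100770-191100796, plus strand): AACcgggttGCAGCTcagaggAGCCGG
Batf2 (chr19:6166510-6166536, plus strand): AACcgagtgGCTGCCcagcgcAGCCGG
Fosl2 (chr5:32150466-32150492, plus strand): AACaagctaGCTGCAgccaagTGTCGG
Fosl1 (chr19:5454458-5454484, plus strand): AACaagctaGCAGCTgctaagTGCAGA
Fos (chr12:85475637-85475663, plus strand): AATaagatgGCTGCAgccaagTGCCGG
Fosb (chr7:19306595-19306621, minus strand): AACaagctgGCTGCAgctaagTGCAGG

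Of these 27 bases, 9 were the same in all 10 genes and 0 of the 9 codons were identical throughout. Within a family 19 to 24 bases matched between any pair of genes, and between families 11 to 21. The next to last codon was a cysteine codon in 7 of 7 Fos and Jun genes and the serine codon AGC in 3 of 3 Batf genes. Even the most alike transcripts, those of Jun and Jund, shared no exact run longer than 20 bases. No other gene on the same strand overlapped the counted exon bases of the 10 genes.

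Transcripts of the Jun family made up nearly all of the AP-1 and Batf pool. Levels are given in TPM, the count of a gene divided by its exon length and scaled to the library's sum, as the mean ± SD of 4 libraries (n = 4). The summed level of the 10 genes was 2311 ± 237 TPM, of which the Jun family held 91.0 ± 1.09%, the Batf family 7.76 ± 1.00% and the Fos family 1.20 ± 0.121%. In counts not divided by length the Batf family's share was 4.13%. The Jun family exceeded the Fos family by 6.25 ± 0.16 on the log2 scale, a ratio of 76.6 ± 8.71. It did so in 4 of 4 libraries, with p = 0.125 by exact permutation of signs (two-sided), the smallest p that 4 libraries allow. The same difference in undivided counts was 4.63.

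Libraries held between 43821767 and 73819468 counts. A gene is called expressed here at 1 TPM or more in all 4 libraries, which 11593 genes and 8 of the 10 members reached. Of the 7 markers listed for regulatory T cells all were expressed, with Foxp3 at 289 ± 23.5 TPM and Il2ra at 1488 ± 19.4. None of the 3 B cell markers or of the 3 markers of CD8 T and natural killer cells was expressed by this rule. Of the latter, Eomes averaged 1.20 ± 0.351 TPM and was above 1 TPM in replicates 3 and 4 but not in replicates 1 and 2. Of the 3 macrophage markers only Adgre1 was expressed, at 1.30 ± 0.328 TPM. Replicates 1 and 2 had 172 and 145 TPM of Xist, the RNA of the silenced X chromosome, against 0.255 and 0.367 TPM in replicates 3 and 4, although the libraries carry 1 donor record.

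**Figure D1:**
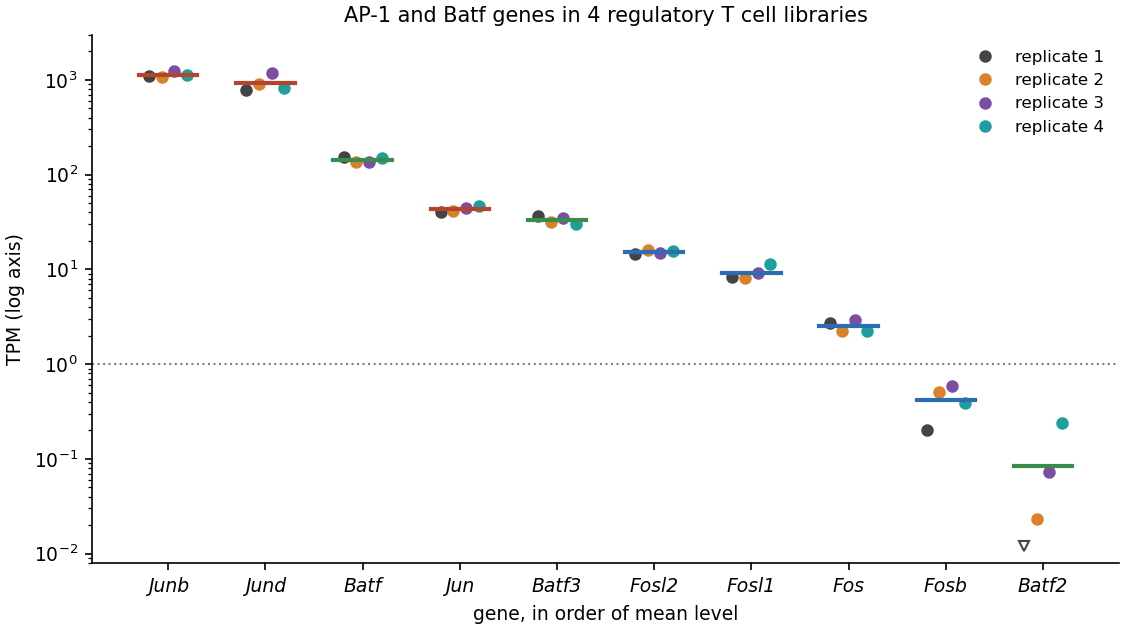
TPM of each of the 10 genes on a log axis, with a point for each replicate and a bar for the mean, red for Jun, green for Batf and blue for Fos genes; the dotted line is 1 TPM and the open triangle at the bottom marks 0 counts. The means of Junb and Jund lie at 1141 and 922 TPM, that of Batf at 144, and Fosb and Batf2 below 1 in every library.

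Among the Jun genes, Junb and Jund were abundant and Jun, the founding member and the strongest activator of the family, was far lower. The mean of Jun still lay above 61.8% of the expressed genes. Junb (ENSMUSG00000052837.6, chr8:84974484-84978718, minus strand) had 1114, 1067, 1245 and 1138 TPM in replicates 1 to 4, a mean of 1141 ± 75.3. Only 82 expressed genes had a higher mean. All 4 libraries lay within 1.17-fold of each other, and 32376 to 62003 counts stood behind the values. Jund (ENSMUSG00000071076.6, chr8:70698949-70700616, plus strand), a gene without introns whose protein is known to restrain proliferation, had 789.8, 903, 1176 and 817 TPM, a mean of 922 ± 176. Replicate 3 was the highest and its value lay above the Junb level of replicates 1, 2 and 4, so the ranges of the 2 genes overlapped.

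Within each library Junb still exceeded Jund, by 0.32 ± 0.20 on the scale of log2(TPM + 1). The ratio ran from 1.06 in replicate 3 to 1.41 in replicate 1. Jun (ENSMUSG00000052684.4, chr4:95049034-95052222, minus strand), which also has no introns, had 40.8, 41.8, 44.7 and 46.3 TPM, a mean of 43.4 ± 2.53. Junb was 26.3 ± 1.53 times and Jund 21.2 ± 3.75 times as abundant as Jun. Jun thus held 2.08 ± 0.205% of the family's TPM, Junb 54.4 ± 3.24% and Jund 43.5 ± 3.42%. Junb's share was 60.3% when the longest transcript was used as the length, which for Junb has 1809 bases against the 2301 exon bases counted.

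**Figure D2:**
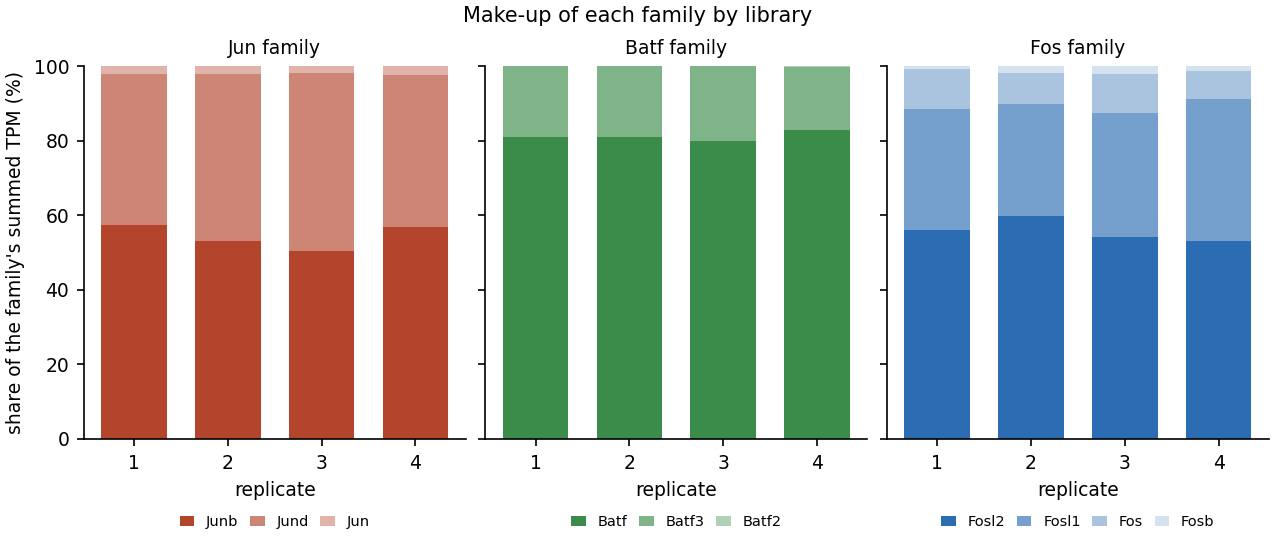
Share of each gene in the summed TPM of its family, in percent, for each of the 4 replicates, with the Jun family on the left, Batf in the middle and Fos on the right. Junb's share is lowest in replicate 3 at 50.5% and highest in replicate 1 at 57.3%, while Batf holds between 79.8% and 83.0% of its family in every library.

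Batf was the main member of its family. Batf (ENSMUSG00000034266.5, chr12:85686669-85709087, plus strand) had 154, 136, 137 and 150.1 TPM, a mean of 144 ± 9.08, above 87.8% of the expressed genes. Batf3 (ENSMUSG00000026630.9, chr1:191097847-191108945, plus strand), best known as a factor of type 1 conventional dendritic cells, had 36.2, 32.0, 34.6 and 30.5 TPM, a mean of 33.3 ± 2.58. The 4 values of either gene differed by less than 1.2-fold, and their ranges lay far apart.

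Batf exceeded Batf3 by 2.08 ± 0.13 on the scale of log2(TPM + 1), a ratio of 4.35 ± 0.407. Its sign was the same in 4 of 4 libraries (exact permutation of signs, p = 0.125). It was 1.10 when each gene was divided by its longest protein coding transcript, because the 1597 exon bases of Batf3 then became 801. Batf2 (ENSMUSG00000039699.13, chr19:6140983-6172476, plus strand), a member that interferon induces in myeloid cells, had 0, 1, 4 and 9 counts in replicates 1 to 4, or 0, 0.0230, 0.0733 and 0.237 TPM. Counts of 0 allow up to 3 counts, which is at most 0.0942 TPM for Batf2, so its level was at or near the limit of detection. Without replicate 4 its mean fell from 0.0833 to 0.0321 TPM.

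Since Batf3 is a dendritic cell factor, markers of those cells were read beside it. Of 6 markers listed for type 1 conventional dendritic cells, 4 were not expressed. Clec9a had 0 counts in all libraries, Xcr1 averaged 0.0430 TPM, Itgax 0.00962 and Flt3 0.0726. The other two, Zbtb46 at 2.46 ± 0.248 and Irf8 at 875 ± 38.7 TPM, were expressed. The summed level of the list was 821 to 907 TPM, nearly all of it Irf8, and its part in the Batf3 level was not tested.

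The Fos genes were low, and the Fos-related members Fosl2 and Fosl1 outweighed Fos and Fosb. Fosl2, which encodes Fra-2 (ENSMUSG00000029135.10, chr5:32135801-32157842, plus strand), had 14.5, 16.1, 15.1 and 15.7 TPM, a mean of 15.3 ± 0.718. Fosl1, which encodes Fra-1 (ENSMUSG00000024912.5, chr19:5447703-5455945, plus strand), had 8.40, 8.05, 9.25 and 11.3 TPM, a mean of 9.24 ± 1.45. Replicate 4 was its highest library, and no Fosl1 value reached the lowest value of Fosl2.

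Fos (ENSMUSG00000021250.13, chr12:85473890-85477273, plus strand), an immediate early gene with a short-lived RNA, had 2.73, 2.22, 2.95 and 2.23 TPM from 79 to 150 counts. Its mean of 2.53 ± 0.364 exceeded that of only 6.73% of the expressed genes. Fosb (ENSMUSG00000003545.3, chr7:19302696-19310051, minus strand) had 0.203, 0.511, 0.585 and 0.393 TPM, a mean of 0.423 ± 0.166, from 16 to 79 counts. Replicate 1 had the lowest Fosb value, and no library reached 1 TPM. Fosl2 held 55.8 ± 2.97% of the family's TPM, Fosl1 33.5 ± 3.36%, Fos 9.23 ± 1.58% and Fosb 1.53 ± 0.593%.

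In the order of level, Junb, Jund, Batf, Jun, Batf3, Fosl2, Fosl1, Fos, Fosb and Batf2, the values of neighbours overlapped in 2 of 9 pairs. These were Junb with Jund, and Fosb with Batf2. The higher gene led in 4 of 4 libraries in each of the 9 pairs. Each pair gave p = 0.125 in the two-sided exact sign-flip permutation test, also after Benjamini-Hochberg adjustment over the 9 pairs. In this test 0.125 is the only p that agreement in 4 of 4 libraries can give, and adjusting 9 equal values cannot change it. The order was also set by the means of the same libraries, so these tests add no support to it. The mean differences on the scale of log2(TPM + 1) ran from 0.32 for Junb over Jund to 2.65 for Jund over Batf. Jun and Batf3 differed by 0.37 ± 0.17, and their order turned around when the length of the longest transcript was used, where the difference was -0.14. With that length Junb exceeded Jund by 0.67 and Fosl2 exceeded Fosl1 by 1.31, against 0.68 with the deposited length. Fosb exceeded Batf2 by 0.39, and by 1.61 with a pseudocount of 0.1 in place of 1.

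Sequence upstream of the start site is shown for the most abundant member of the Jun and Batf families and for Jun and Fos, whose levels were far lower. The bases are RefSeq's for GRCm38.p6, the same assembly as mm10, ending where the counted exons begin or before. Capitals mark the motifs found on either strand.

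Junb (chr8:84978749-84978998, minus strand): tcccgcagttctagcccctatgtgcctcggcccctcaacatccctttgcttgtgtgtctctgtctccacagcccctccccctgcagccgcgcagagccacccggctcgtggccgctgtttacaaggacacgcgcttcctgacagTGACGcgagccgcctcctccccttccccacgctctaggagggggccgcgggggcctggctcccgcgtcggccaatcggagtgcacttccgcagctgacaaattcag
Jun (chr4:95052223-95052472, minus strand): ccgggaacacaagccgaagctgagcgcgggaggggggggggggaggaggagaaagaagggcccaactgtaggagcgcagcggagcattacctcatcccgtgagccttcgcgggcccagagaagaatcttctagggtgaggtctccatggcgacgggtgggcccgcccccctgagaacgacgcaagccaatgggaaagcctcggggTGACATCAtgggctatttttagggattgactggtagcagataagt
Batf (chr12:85686470-85686668, plus strand): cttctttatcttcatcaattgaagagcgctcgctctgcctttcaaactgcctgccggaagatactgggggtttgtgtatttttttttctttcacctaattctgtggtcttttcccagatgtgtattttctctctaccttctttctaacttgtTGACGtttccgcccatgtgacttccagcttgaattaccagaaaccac
Fos (chr12:85473640-85473889, plus strand): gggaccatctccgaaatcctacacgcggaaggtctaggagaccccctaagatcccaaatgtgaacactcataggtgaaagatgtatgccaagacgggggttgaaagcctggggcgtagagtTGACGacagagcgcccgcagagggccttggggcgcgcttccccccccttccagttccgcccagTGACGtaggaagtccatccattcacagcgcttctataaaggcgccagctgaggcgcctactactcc

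RefSeq promoters were found for 8 of the 10 genes. The motifs searched in the 250 bases before the RefSeq start were the AP-1 site TGANTCA, the cAMP response element TGACGTCA, the variant TGACATCA, the core TGACG, which lies within the cAMP response element, and the CArG box of the serum response factor. Jun held the variant TGACATCA, starting 45 bases before its start, as 2.93% of all 32851 promoter entries did. The core TGACG was found in Junb, Batf and Fosb, and at 2 places in Fos, against 17.8% of all entries. The sites TGANTCA, present in 6.75% of entries, and TGACGTCA, in 1.55%, and the CArG box, in 1.47%, were found in 0 of the 8 genes. For Jund the RefSeq start lies 1210 bases before the first counted exon, so its window is not next to the counted gene. For Fosl2 and Batf3 all 250 bases searched lie inside counted exons, as do 51 for Batf and 6 for Fosb, so these searches do not describe only sequence upstream of the counted gene. These matches describe letters in a short window and say nothing of binding. Sites further upstream, for any of the motifs, were not searched.

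Variation between libraries was largest for the rarest members and for Jund. The coefficient of variation was 4.68% for Fosl2, 5.84% for Jun, 6.29% for Batf, 6.60% for Junb and 7.74% for Batf3, near the median of 6.52% over the 11593 expressed genes. Fos and Fosl1 stood at 14.4% and 15.6%. Jund reached 19.1% despite at least 16639 counts in each library, and 11.2% of expressed genes varied more. It stood out less in edgeR's estimate of each gene's spread, which borrows from other genes. There Jund was at 10.6%, against a common value of 8.52%, and ranked 4223 from the largest of 12917 genes. Fosb, with few counts, was at 39.4% and Batf2 at 128%.

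To compare libraries, not conditions, edgeR's quasi-likelihood test contrasted single replicates with the remaining 3 over 12917 genes. An arm of each contrast is a single library, so no spread was measured in it and that of the other libraries stood in for it. In each contrast those other libraries included both high and low Xist levels. The part of this in the spread and in the differences was not tested. Of the 9 members tested, 0 were called in any replicate at a Benjamini-Hochberg adjusted p below 0.05. The share of all tested genes that was called was 0.0697% for replicate 1 and 0.0232% for replicate 3, and it was 0% for replicates 2 and 4. At an unadjusted p below 0.05, 2 members passed in replicate 1 and 2 in replicate 3, and 0 in replicates 2 and 4. Over all genes tested 9.31%, 6.78%, 2.31% and 2.49% passed at that level in replicates 1 to 4. The median difference of the 9 members was -0.12, -0.08, 0.08 and -0.01 on the log2 scale in replicates 1 to 4, against medians over all genes between -0.01 and 0.00. With DESeq2 1 member was called in replicate 3 and 0 in the others, although DESeq2 gave an adjusted p to only 5 members in replicate 1 and 2 in replicate 2. DESeq2 called 0.226%, 0.684%, 0.0227% and 0% of the genes it gave an adjusted p in replicates 1 to 4.

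The member that came nearest was Jund. It was 0.50 (SE 0.09) higher in replicate 3 on the log2 scale, with an adjusted p of 0.119 in edgeR, and 0.30 (SE 0.12) lower in replicate 1, with an adjusted p of 0.416 in edgeR. The difference in replicate 3 passed with DESeq2, at an adjusted p of 0.000391, and in edgeR without the filter on low counts, at an adjusted p of 3.2e-05, where 0.159% of all genes were called. With RLE scaling in edgeR it did not pass, at an adjusted p of 0.111. When replicate 1, 2 or 4 was left out, its adjusted p in edgeR was 0.0053, 0.0031 and 0.048, and 0.121%, 0.131% and 0.159% of all genes were called. The lower level in replicate 1 passed in edgeR without the filter, at an adjusted p of 0.046, where 0.477% of all genes were called. It also passed in edgeR when replicate 2 or 4 was left out, at an adjusted p of 0.00085 and 0.00029, where 0.861% and 2.59% of all genes were called. Without replicate 3 it did not, at an adjusted p of 0.915 in edgeR, where 0.178% were called. Each of these fits also has a single library in an arm. Without replicate 2, replicate 1 was set against replicates 3 and 4, both low in Xist. Without replicate 4, replicate 3 was set against replicates 1 and 2, both high in Xist. In those fits the Jund difference cannot be told apart from the split in Xist. Junb was 0.18 (SE 0.08) higher in replicate 3, with an adjusted p of 1.00 in edgeR. Fosb was 1.30 (SE 0.55) lower in replicate 1, from 16 counts, with an adjusted p of 0.440 in edgeR.

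**Figure D3:**
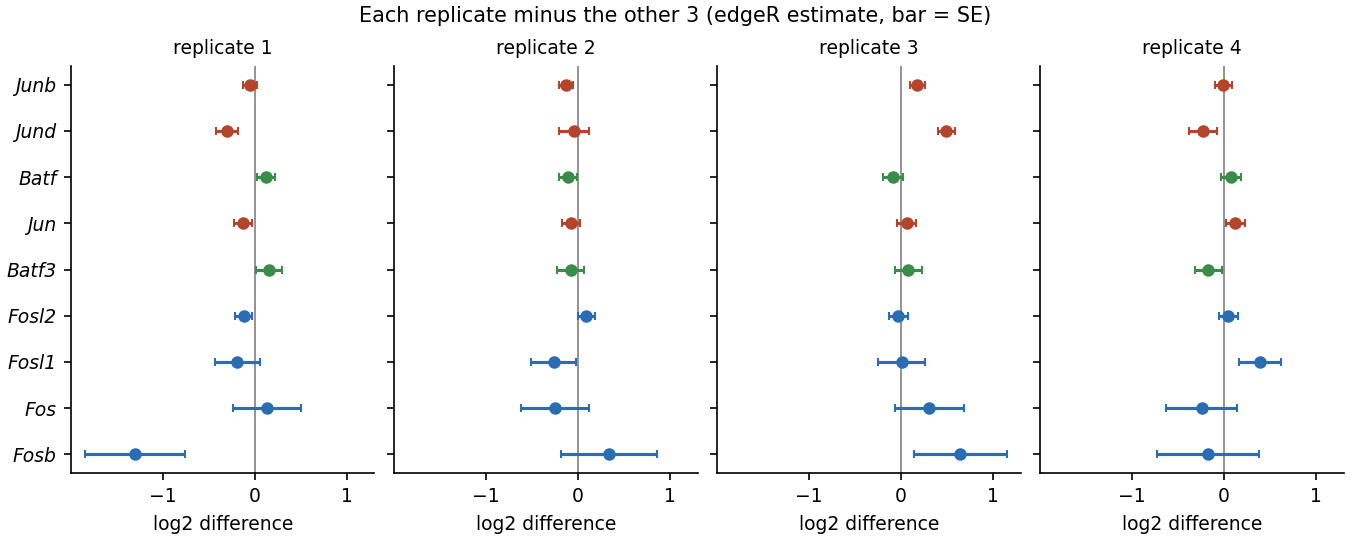
Difference of each replicate from the other 3 on the log2 scale as edgeR estimates it, with its standard error, for the 9 members that passed the expression filter, red for Jun, green for Batf and blue for Fos genes. Jund lies at 0.50 in replicate 3 and at -0.30 in replicate 1, and Fosb at -1.30 in replicate 1.

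Jund was also read beside other genes rich in G and C, a set and a threshold chosen after its values were seen. The Jund transcript has 67.1% G and C, more than 99.8% of the expressed coding genes, whose median is 50.1%. Against the mean of the other 3 libraries, Jund's log2 CPM differed by -0.28, -0.01, 0.50 and -0.21 in replicates 1 to 4. The 33 other expressed coding genes with at least 65% G and C had medians of -0.16, 0.01, 0.26 and -0.03, with 6.06%, 54.5%, 93.9% and 39.4% of them above 0. Jund and the set thus lay on the same side and away from 0 in replicates 1 and 3, while in replicate 4 Jund was low and the set near 0, and in replicate 2 both were near 0. Over all 10275 expressed coding genes the median was within 0.01 of 0 in each replicate. Batf3 at 62.8% and Junb at 62.6% were the next richest members, and Fos at 51.9% was the lowest. The part of base composition in the Jund values was not tested.

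**Figure D4:**
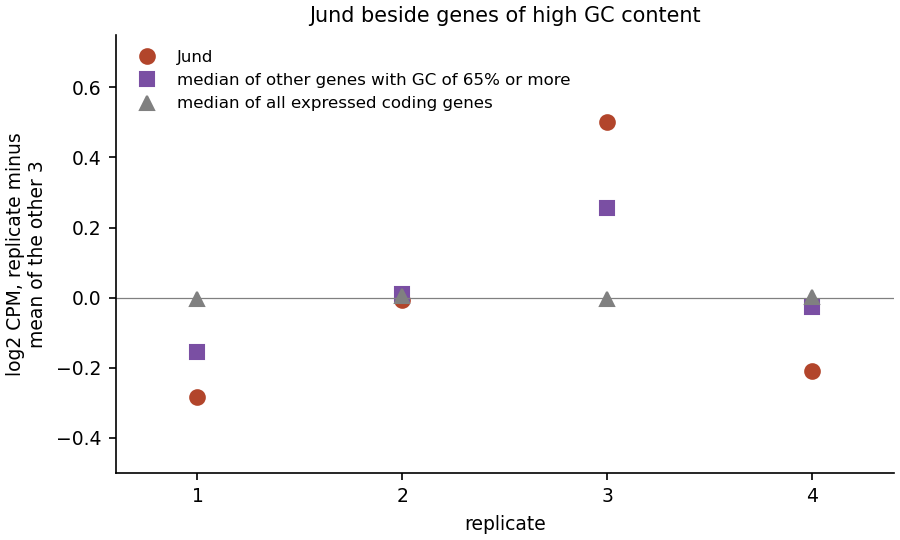
Difference in log2 CPM between each replicate and the mean of the other 3, for Jund (circles), for the median of the 33 other expressed coding genes with at least 65% G and C (squares) and for the median of all 10275 expressed coding genes (triangles). Circle and square are both above 0 in replicate 3 and both below 0 in replicate 1; in replicate 4 the circle is at -0.21 and the square at -0.03, and in replicate 2 they are at -0.01 and 0.01.

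Other leucine zipper factors can bind the same partners or sites. Of 23 such genes, 21 were expressed, with a median of the mean levels of 30.1 TPM. Atf4, the effector of the integrated stress response, led at 1090.0 ± 38.6 TPM, followed by Nfe2l1, a regulator of proteasome genes, at 150.01 ± 5.61 and Atf1 at 98.7 ± 3.74. By mean level among the 33 zipper genes listed here, members included, Junb ranked 1, Jund 3, Batf 5, Jun 10 and Batf3 15. Fos, Fosb and Batf2 ranked 29 to 31, the lowest of the listed genes with a count. The upper ranks did not hold in every library. Atf4 was 0.960, 1.04, 0.842 and 0.996 times the Junb level in replicates 1 to 4. Batf was above Nfe2l1 in replicate 1, at 154 against 152 TPM, and below it in the others.

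Bach2, a repressor that opposes AP-1 at shared sites in T cells, stood at 81.1 ± 6.48 TPM, or 0.562 ± 0.0247 of the Batf level. Maf, at 20.6 ± 0.933 TPM, and Nfil3, at 30.1 ± 1.38, were lower than Batf in every library. Atf3 was at 16.6 ± 1.99 TPM and Jdp2, which encodes a partner that represses Jun, at 5.15 ± 0.635, or 0.119 ± 0.0126 of Jun.

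**Figure D5:**
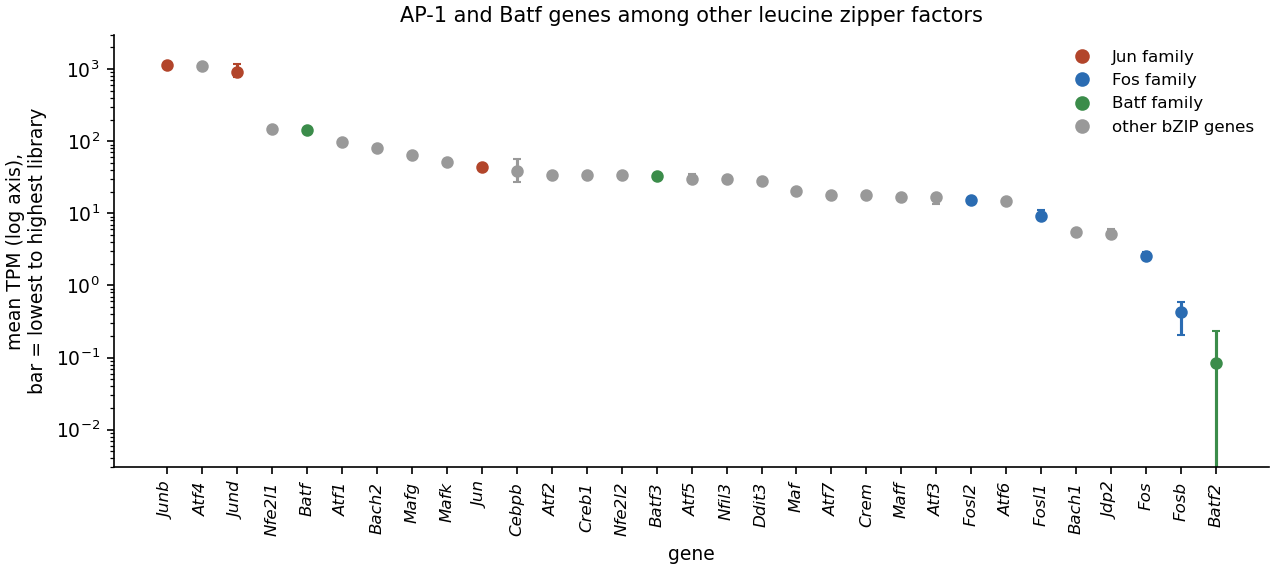
Mean TPM on a log axis of the 31 leucine zipper genes with a count, members in red (Jun), green (Batf) and blue (Fos) and the others in grey; bars run from the lowest to the highest library, and that of Batf2 goes to 0 below the axis. By mean level among these listed genes Junb ranks 1 and Jund 3 with Atf4 between them, and Fos, Fosb and Batf2 close the order.

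The RNAs of Irf4 and Irf8, with which Batf proteins bind composite sites, were far more abundant than that of Batf. Irf8 was at 875 ± 38.7 TPM and Irf4 at 773 ± 26.02, which is 6.07 ± 0.397 and 5.37 ± 0.207 times the Batf level. Both exceeded Batf more than 5-fold in every library. Of the NFAT factors that pair with AP-1, Nfatc1 stood at 85.0 ± 5.90 TPM, and Nfatc2, at 51.1 ± 2.56, was the lowest of the 6 genes of this list, all of which were expressed.

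Of 13 kinases upstream of AP-1, 12 were expressed. Map2k3, which activates p38, led at 213 ± 6.45 TPM, and Map2k1, which activates the ERK kinases, stood at 142 ± 6.66. Mapk10, the neuronal Jun kinase, had 0 counts in all libraries. All 6 genes of the serum response factor group, which drives Fos, were expressed, with Srf at 131 ± 7.04, Elk3 at 118 ± 6.84, Mrtfa at 51.7 ± 2.83 and Mrtfb at 11.03 ± 0.914 TPM.

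All 7 genes of the ubiquitin ligase group that acts on Jun proteins were expressed. Ndfip1, the adaptor that activates Itch, was at 650.1 ± 64.8 TPM, and Itch, the ligase that marks Junb and Jun for degradation, at 32.5 ± 1.19. Fbxw7 stood at 14.8 ± 0.818 and Cop1, the lowest, at 4.87 ± 0.143.

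Other immediate early genes stood above Fos. All 14 genes of this list were expressed, with a median of the mean levels of 127 TPM, led by Ier2 at 748 ± 33.2, Nr4a1, a nuclear receptor induced by antigen receptor signals, at 738 ± 69.0 and Myc, a driver of growth, at 543 ± 23.5, while Atf3 was the lowest. Ier2 was 299 ± 33.1 times, Nr4a1 297 ± 57.2 times and Egr1, itself a gene driven by the serum response factor, 49.2 ± 8.27 times as abundant as Fos. Summed over the list the level was 3076 to 3369 TPM across libraries.

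Genes linked to AP-1 and Batf were unevenly present. In the tissue regulatory T programme that Batf is known for, 5 of 10 genes were expressed, and the median of the mean levels was 1.36 TPM. The chemokine receptor Ccr8 was at 468 ± 10.6 TPM, Gata3 at 44.2 ± 1.67, Nfil3 at 30.1 ± 1.38, Tigit at 21.3 ± 3.02 and Pparg at 1.82 ± 0.327. Of those not expressed, Tnfrsf8 averaged 0.906 TPM, Areg 0.154, Il10 0.114 and Il1rl1 0.0486, and Klrg1 had 0 counts in all libraries. Of 11 cytokine and receptor genes with known AP-1 sites, 7 were expressed, led by Il2ra at 1488 ± 19.4, Ctla4 at 444 ± 27.4 and Tnf at 277 ± 2.63 TPM, and Il21 had 0 counts in all libraries. With no cells lacking Batf or AP-1 for comparison, dependence of these genes on the members was not tested. Across the 8 lists, 76 of the 87 genes could be tested, and in each replicate 0 of them were called in edgeR. At an unadjusted p below 0.05, 7, 3, 3 and 2 of them passed in replicates 1 to 4, against the 9.31%, 6.78%, 2.31% and 2.49% of all genes tested.

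The protein coding genes nearest to each member, by the smallest maximum difference in log2(TPM + 1) over 4 libraries, give a scale for these levels. Junb lay within 0.11 of Pcbp1, which encodes a poly(C)-binding protein. Jund lay within 0.25 of Rps27 and Rps18, which encode proteins of the small ribosomal subunit and have near-identical copies, so that their counts are uncertain. Batf lay within 0.03 of Ap2a1 and Arfgap2, Jun within 0.07 of Tpst2 and Cyb5r1, and Batf3 within 0.07 of Nrn1 and Ids. Fosl2 lay within 0.04 of 1110008P14Rik and 9930021J03Rik.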

How the data were processed

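RNA of 4 libraries was sequenced; the labels call the assay total RNA-seq while the linked library protocol is named for polyA+ RNA. The authors made the deposited counts, whole fragments per gene, with featureCounts 1.4.6-p4 over the exons of GENCODE M13 on mm10, paired and reverse-stranded, per the file headers. The command recorded there has no option for multi-mapping fragments. No aligner version was found in the labels or headers. The deposited length column holds the summed exon length of a gene. Symbols came from GENCODE M21 for 50376 of 50600 genes. TPM was computed here from counts and length. Mrtfa and Mrtfb were listed under their older symbols, Mkl1 and Mkl2, and were found through the newer ones. The replicate tests used edgeR 4.0.16 with TMM, filterByExpr for 1 group and Benjamini-Hochberg adjustment at 0.05, with a single library assumed to have the same spread as the rest; DESeq2 1.42.0 was an alternative. Tested on simulated counts of 12917 genes for replicate 1 against the rest, the edgeR step recovered 66% of 50 genes changed 1.5-fold and 80% changed 2-fold, with 7 false calls in all. Each simulated gene had the spread typical of its level and none of its own, and the simulated libraries fell into no subgroups. The simulation therefore does not show what would be recovered among genes that vary more than is typical. A count of 0 allows up to 3 counts, for counting error only, and PCR copies can inflate counts. The members and gene lists were chosen with earlier results of these data known. Named genes were all 10 members, the 3 highest and the lowest gene of each list, a few partners chosen by name, and the 2 nearest genes of each member of at least 10 TPM. Some genes that this rule names are not reported here.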

Additional observations from a re-analysis of the deposited data

How the results depend on the processing

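Levels depended mainly on the length used, either for the member itself or for the genes in the library's sum. Jund, Batf and Jun had the same 1668, 955 and 3189 bases in each setting, so their levels moved only through that sum. With the longest transcript as length, in TPM, Jund stood at 728, Batf at 114, Jun at 34.3, Batf3 at 37.9, Fosl2 at 17.9 and Fosl1 at 6.69. With the longest protein coding transcript, a choice made after seeing the data, Junb stood at 1053, Jund at 668, Batf at 105, Jun at 31.5, Batf3 at 48.2, Fosl2 at 16.5, Fosl1 at 6.14 and Fos at 2.05. Both choices gave Junb 60.3% of the Jun family, against 61.2% in undivided counts, where the Batf family held 4.13% of the members' sum. The difference of Jun over Batf3 reversed to -0.14 and, with the coding length, to -0.60. No other of the 70 alternative values for neighbouring genes changed sign, and TMM scaling, a denominator without mitochondrial and short genes, or leaving out a replicate moved no level by more than its SD. Without replicate 3 the Jund mean was 837 TPM. Members called in replicate 1 were 1 without the filter (0.477% of all genes called) and 0 to 1 when a replicate was left out (0.178% to 2.59%). In replicate 3, 1 was called with DESeq2 (0.0227%), 1 without the filter (0.159%), 1 in each fit that left out a replicate (0.121% to 0.159%) and 0 with RLE scaling; the member called was Jund each time. The cause was not tested. No paired analysis was possible because all libraries form 1 group. Depth limits Fosb and Batf2, whose highest counts were 79 and 9.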
